A study of Taeniopygia guttata with 5 samples.

Results

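CHAT, SLC5A7, LHX8, CHRM3 and CHRM4, 5 genes of the cholinergic system, were followed across tissue and age in the zebra finch brain. Acetylcholine is made in presynaptic neurons from choline, which is taken back from the cleft after each release, and it acts on muscarinic receptors, which couple to G proteins, and on nicotinic receptors, which are ion channels. In the vertebrate forebrain most cholinergic cell bodies lie in the basal forebrain and the striatum, and in songbirds cholinergic fibres reach the song nuclei from the ventral forebrain. CHAT encodes choline acetyltransferase, the enzyme that makes acetylcholine. SLC5A7 encodes the high-affinity choline transporter of cholinergic terminals. LHX8 encodes a LIM homeobox transcription factor that, in the mouse, is needed for forebrain cholinergic neurons to form. CHRM3 and CHRM4 encode the muscarinic receptors M3, which couples to Gq and phospholipase C, and M4, which couples to Gi/o and lowers cyclic AMP. These 5 genes were taken by their symbols from the deposited tables, where each is 1 of the 4675 transcripts listed in at least 1 of 4 comparisons, and 4 of the 5 have read counts in every library.

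HVC is a nucleus of the song system in the pallium that is needed for learned song. RNA-Seq was made from HVC and from whole brain (WB) of male zebra finches (Taeniopygia guttata) without treatment, at 45 d, when juveniles practise song, and at 100 d, when song is adult, from birds that had neither sung nor heard song in the time watched before collection. Libraries R92L1 and R92L2 came from HVC at 45 d, R92L3 from HVC at 100 d, R81L6 from WB at 45 d and R81L5 from WB at 100 d, and the order of the first pair as replicates is not given. Each HVC library pooled RNA of 4 birds and each WB library RNA of 2. HVC was dissected by hand, and a sample could carry some of the ventricular zone beside it. Only HVC at 45 d was repeated, and nothing says that its 2 libraries came from different birds, so p-values rest on the spread of this pair, which may be technical. HVC and WB libraries carry different run labels (R92 and R81), and tissue and run cannot be told apart. Juveniles lived with their parents until collection, while adults had been moved to group cages, so age and housing cannot be told apart either. The tables list 495316 to 1014565 reads per library over 3126 to 3231 transcripts. Relative library sizes were 0.903 for R92L1, 1.09 for R92L2, 1 for R92L3, 1.81 for R81L6 and 1.51 for R81L5, and a level below is the read count divided by this size. Intervals on levels, ratios and shares are 95% intervals and cover counting error only. Cerebellar and choroid plexus markers were mostly low in HVC: 5 transcripts summed to levels of 56.5 to 97.3 in the 3 HVC libraries and of 1629 and 1533 in WB at 45 d and 100 d, and the cerebellar granule cell gene GABRA6 was at 0 in both 45 d HVC libraries. KL, of the same list but without a 100 d HVC count here, was at 46.9% of WB at 45 d (32.4% to 67.1%). This check does not cover ventral forebrain or striatal tissue, whose markers are given below. In a dissected tissue, fewer cells of a type and less RNA per cell cannot be told apart.

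CHAT, SLC5A7 and LHX8, the genes of the presynaptic side and its lineage, had 7 reads or fewer in HVC at 45 d and 11 or more at 100 d. CHAT (ENSTGUG00000005959, taeGut1 chr6:8589814-8622194) had 2 reads in each 45 d HVC library, 11 in HVC at 100 d, 55 in WB at 45 d and 63 in WB at 100 d. Its levels were 2.21, 1.84, 11, 30.4 and 41.7 in that order. Both WB libraries were above all HVC libraries, and the 100 d HVC library was above both 45 d ones. SLC5A7 (ENSTGUG00000009694, chr1:27526372-27546688) had no read in either 45 d HVC library, 29 in HVC at 100 d, 74 in WB at 45 d and 86 in WB at 100 d, which are levels of 0, 0, 29, 40.9 and 57.0. LHX8 (ENSTGUG00000010411, chr8:27787916-27798943) had 3 and 7 reads in HVC at 45 d, 47 in HVC at 100 d, 163 in WB at 45 d and 165 in WB at 100 d, which are levels of 3.32, 6.42, 47, 90.1 and 109. All 3 genes thus ran in the same order, WB at 100 d, WB at 45 d, HVC at 100 d and HVC at 45 d. Neighbours in this order were not always apart: the counting intervals of the 2 WB libraries overlapped for each gene, and so did those of SLC5A7 in HVC at 100 d (19.4 to 41.6) and WB at 45 d (32.1 to 51.3). For CHAT and LHX8 the HVC 100 d interval lay below that of WB at 45 d. Between the ages in HVC the intervals of CHAT overlapped with both 45 d libraries (5.49 to 19.7 at 100 d, 0.222 to 6.63 in R92L2), and those of SLC5A7 and LHX8 did not.

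Of the muscarinic receptors, CHRM3 had about the same level in HVC at both ages and CHRM4 a higher one at 100 d. CHRM3 (ENSTGUG00000010589, chr3:46434353-46554604) had 34 and 27 reads in HVC at 45 d, 33 in HVC at 100 d, 156 in WB at 45 d and 160 in WB at 100 d. Its levels were 37.6, 24.8, 33, 86.2 and 106. The 100 d HVC library lay between the 45 d pair, whose joint level was 30.6, and all 3 were below both WB libraries. CHRM4 (ENSTGUG00000010635, chr5:22297266-22298690) had 61 and 53 reads in HVC at 45 d and 156 in HVC at 100 d, which are levels of 67.5, 48.6 and 156. The 100 d library was above both, and CHRM4 in WB was not analysed here. The receptor genes are similar in sequence, and how reads that match several of them were counted is not given in the sources used here, so a share of their reads could be split among them. CHRM4 is also the one of the 5 genes for which the study designed RT-qPCR primers, shown here because they mark the stretch of the receptor's mRNA that this second assay read. Its values were not used here.
CHRM4 forward primer: gaggaatgggaaagtgga
CHRM4 reverse primer: tcatgctgacggtgctg
The primers are 18 and 17 bases long, and no base is in capitals because none is set apart.

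**Figure D1:**
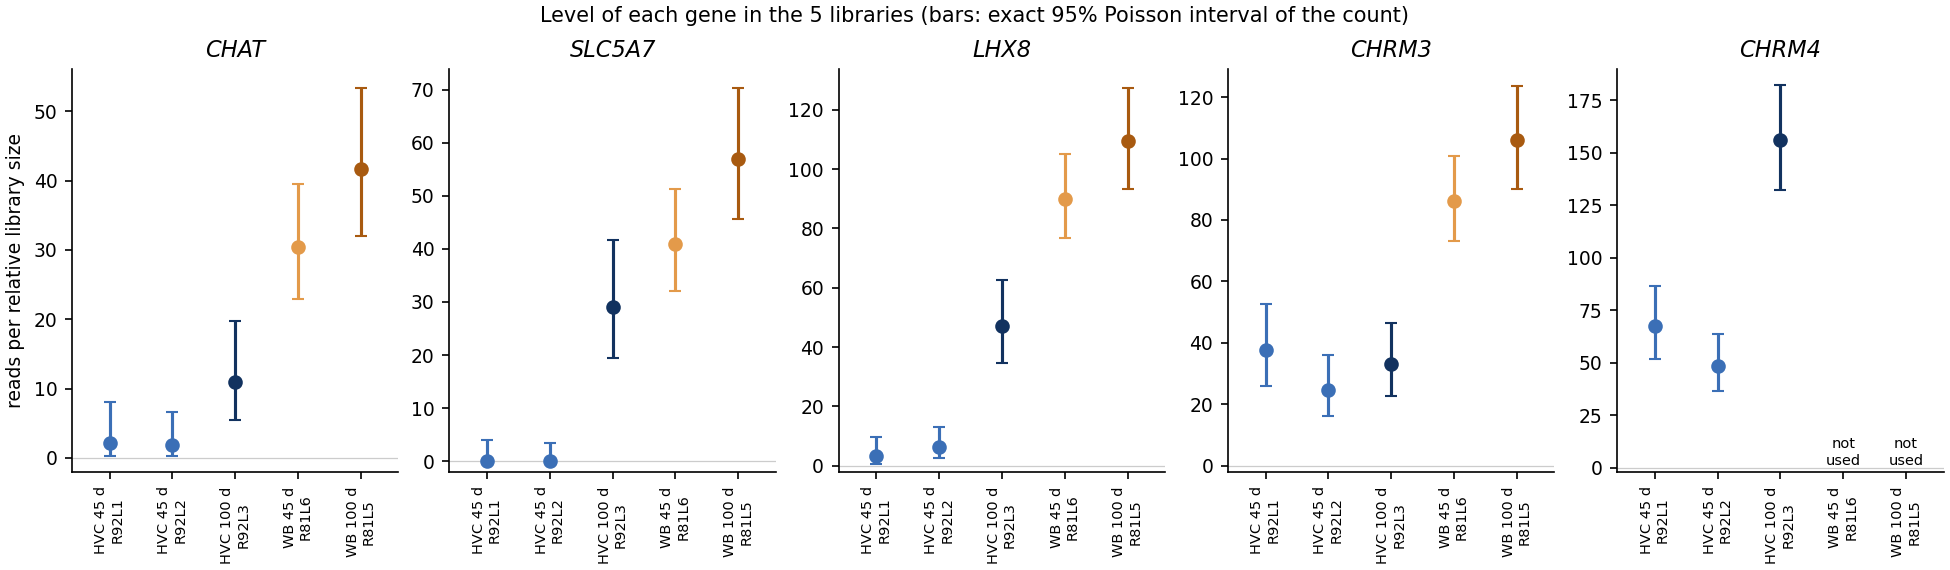
Reads per relative library size of each gene in the 5 libraries, on linear axes that differ between panels. Points are libraries and bars the exact 95% Poisson interval of the count. CHAT, SLC5A7 and LHX8 are lowest in HVC at 45 d, higher in HVC at 100 d and highest in WB, CHRM3 lies between 24.8 and 37.6 in the 3 HVC libraries, and CHRM4 is at 156 in HVC at 100 d against 48.6 and 67.5 at 45 d.

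Comparing HVC with WB at 45 d asks which of these genes juvenile HVC carried less of than the brain as a whole. CHAT in HVC was at 6.61% of its WB level (1.74% to 17.9%), LHX8 at 5.57% (2.62% to 10.5%) and CHRM3 at 35.5% (26.0% to 48.0%). SLC5A7 was at least 27.2-fold lower in HVC, taking 3 counts over both libraries as the floor, which is at most 3.68% of WB. In edgeR's quasi-likelihood test all 4 genes with counts in these libraries were called lower in HVC at an adjusted p under 0.1. The same call was made for 21.1% of the 1920 listed transcripts that were fitted (406 transcripts), a call in either direction for 34.8% of them, and the 263 other calls were higher. With TMM factors in place of the recovered library sizes the calls split into 81 lower and 191 higher, and the log2 fold changes of the 4 genes were still negative. The edgeR log2 fold change was -3.85 ± 0.78 (SE; adjusted p = 0.00453) for CHAT and -4.15 ± 0.56 (adjusted p = 6.06e-05) for LHX8. For CHRM3 it was -1.47 ± 0.44 (edgeR adjusted p = 0.0583). The fitted value for SLC5A7, -8.70 ± 1.23 (edgeR adjusted p = 0.00013), depends on how reads of 0 are handled and is not a measure of size. The median log2 fold change of all fitted transcripts was -0.69. TMM factors moved this median by 0.31 and relative log expression factors by 0.55, and measured from the median CHAT stood at -3.16, LHX8 at -3.46 and CHRM3 at -0.78. The CHRM3 call is the weakest of the 4: its edgeR adjusted p was 0.176 with the sums of listed counts as sizes and 0.311 with TMM factors. It was also lost with relative log expression factors (edgeR adjusted p = 0.548), DESeq2 (adjusted p = 0.875) and limma-voom (adjusted p = 0.126). The call held in 4 of the 9 alternatives with a test. CHAT lost its call with DESeq2 (adjusted p = 0.389) and with limma-voom (adjusted p = 0.104). SLC5A7 and LHX8 were not called in an additive model of tissue and age (edgeR adjusted p = 0.683 and 0.179). That model fits a tissue difference shared by both ages, so it does not test the 45 d difference alone. It is counted among the 9 alternatives that follow. Over the 9 alternatives with a test the adjusted p ran from 1.50e-05 to 0.389 for CHAT, 4.54e-11 to 0.683 for SLC5A7, 4.47e-11 to 0.179 for LHX8 and 0.00972 to 0.875 for CHRM3.

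At 100 d SLC5A7 and LHX8 were nearer to their WB levels than at 45 d, with 45 d limits below the 100 d intervals, while the intervals of CHAT and CHRM3 overlapped between the ages. HVC held 26.4% of the WB level of CHAT (12.5% to 50.4%), 50.9% of SLC5A7 (32.2% to 78.4%), 43.0% of LHX8 (30.4% to 59.8%) and 31.1% of CHRM3 (20.7% to 45.5%). Of the 4 genes CHRM3 was called lower by edgeR, with a log2 fold change of -1.68 ± 0.56 (SE; adjusted p = 0.094), and 13.7% of the 1361 transcripts fitted were called lower, 24.7% in either direction. This one call was lost with 3 other choices of library size, DESeq2, limma-voom and edgeR's exact test. The log2 fold changes of CHAT (-1.91 ± 0.82), SLC5A7 (-0.97 ± 0.68) and LHX8 (-1.22 ± 0.57) had edgeR adjusted p-values of 0.329, 1 and 0.476. That these 3 missed the threshold does not show that HVC and WB were alike. With the recovered library sizes all 4 counting intervals stayed below 100% of WB. The median log2 fold change of all fitted transcripts was also negative (-0.42), and relative log expression factors moved it by 0.36. Measured from the median, CHAT stood at -1.50, SLC5A7 at -0.55, LHX8 at -0.80 and CHRM3 at -1.26.

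**Figure D2:**
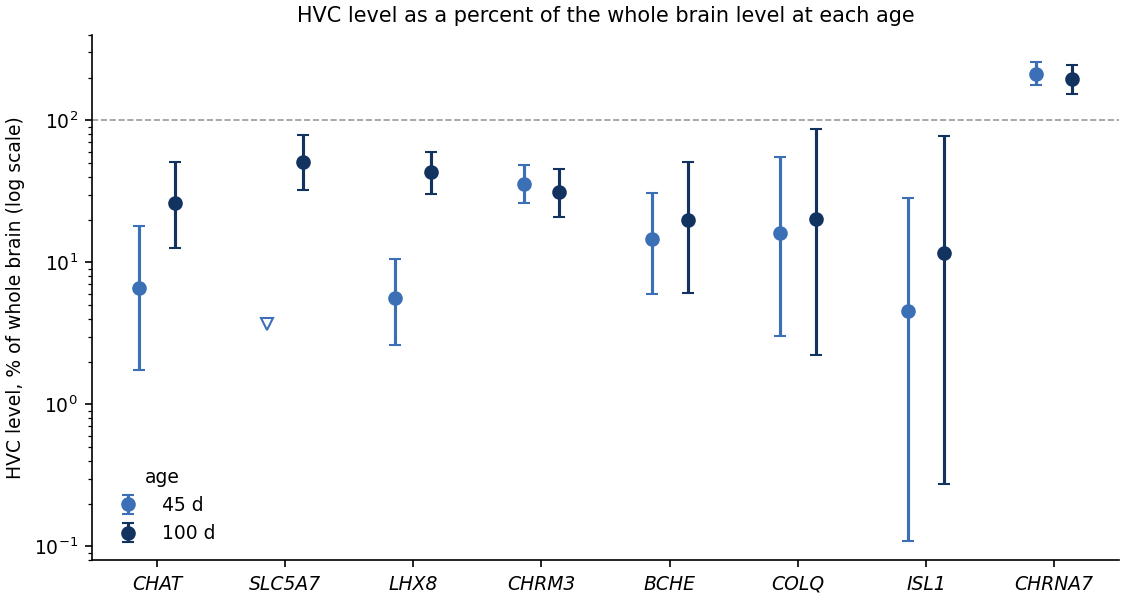
HVC level as a percent of the WB level of the same age, on a log axis, for 4 of the 5 genes and for 4 other cholinergic genes. Bars are 95% counting intervals, the open triangle is the highest percent that SLC5A7 with no read allows, and the dashed line is 100%. CHAT, SLC5A7 and LHX8 are at 6.61%, at most 3.68% and 5.57% at 45 d and at 26.4%, 50.9% and 43.0% at 100 d, while CHRM3 is at 35.5% and 31.1%.

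Comparing the ages within HVC asks what changed there between song practice and adult song. LHX8 was 9.37 times its 45 d level at 100 d (4.67 to 20.8) and CHAT 5.48 times (1.62 to 23.6). SLC5A7 was at least 19.3-fold higher, taking 3 counts over both 45 d libraries as the floor and leaving out the counting error at 100 d. CHRM4 was 2.73 times its 45 d level (2.13 to 3.50) and CHRM3 1.08 times (0.684 to 1.67). The pair of 45 d libraries sets a scale for this: R92L2 over R92L1 was 1.93 for LHX8 (0.442 to 11.6), 0.829 for CHAT (0.0601 to 11.4), 0.72 for CHRM4 (0.489 to 1.06) and 0.658 for CHRM3 (0.382 to 1.12). For LHX8, CHAT, SLC5A7 and CHRM4 the 100 d library was outside the range of the 45 d pair, and for CHRM3 it was inside. This is a description and not a test, and the share over all transcripts was not taken. With so few libraries, a gene without an age difference would often fall outside such a range too. Lying outside it therefore does not by itself set LHX8, CHAT, SLC5A7 and CHRM4 apart from CHRM3. The range rests on few reads for LHX8, CHAT and SLC5A7, and CHRM4 was listed only for its age difference in HVC.

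None of the 5 genes was called between the ages in HVC by edgeR's quasi-likelihood test, and neither was any other of the 2150 transcripts fitted (0%). At an unadjusted p under 0.05 the test gave 444 transcripts (20.7%; 9.49% higher at 100 d). SLC5A7 had a log2 fold change of 7.86 ± 1.23 (SE; edgeR adjusted p = 0.353), which is no measure of size because the 45 d reads were 0. LHX8 had 3.21 ± 0.58 (edgeR adjusted p = 0.376), CHRM4 1.43 ± 0.35 and CHAT 2.38 ± 0.92 (both adjusted p = 1), and these 4 were under an unadjusted 0.05. CHRM3 had 0.09 ± 0.50 (edgeR adjusted p = 1), and its sign turned with the sums of listed counts as library sizes (-0.11) and without R92L2 (-0.19). By p, SLC5A7 was 10th, LHX8 14th and CHRM4 31st among the 2150. Other tools counted differently: edgeR's exact test with a common dispersion called 34 transcripts (1.58%), with SLC5A7 (adjusted p = 5.23e-07) and LHX8 (adjusted p = 0.000109) among them, DESeq2 called 2 and limma-voom 0. Over the 9 alternatives with a test, the adjusted p of SLC5A7 ran from 5.23e-07 to 1 and that of LHX8 from 0.000109 to 1.

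**Figure D3:**
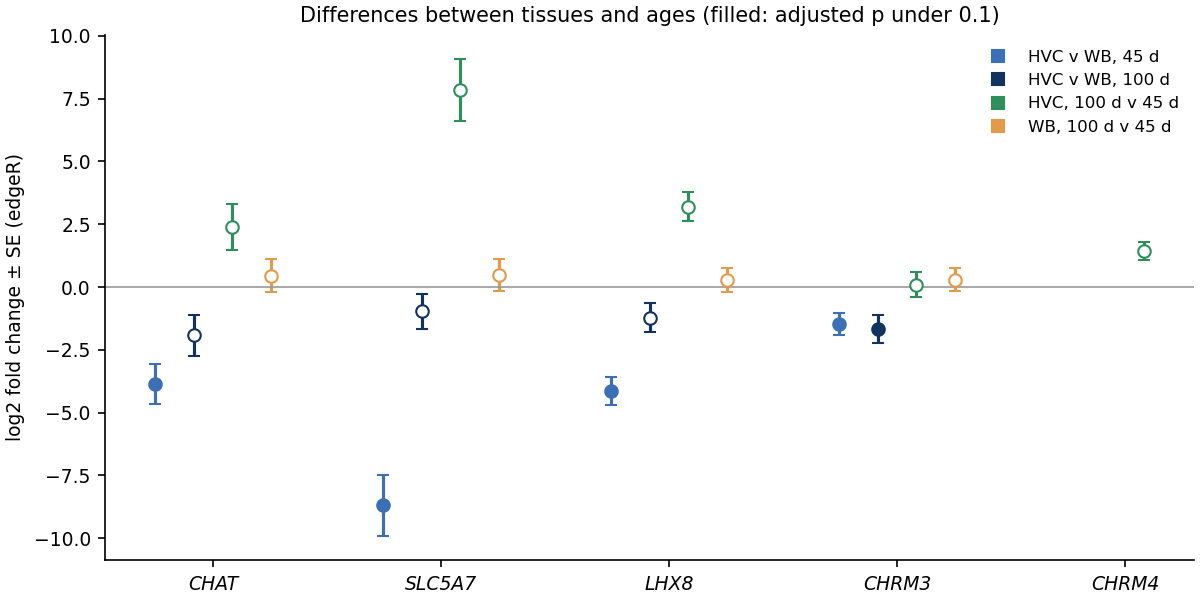
edgeR log2 fold change of each gene in 4 comparisons, with bars of 1 SE. Filled points passed an adjusted p of 0.1 and open points did not. At 45 d the 4 genes measured in both tissues lie below 0 and are filled, at 100 d CHRM3 alone is filled (-1.68), and the age differences in HVC are open, from 0.09 for CHRM3 to 7.86 for SLC5A7, whose value depends on how reads of 0 are handled.

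In WB the levels at the 2 ages were within 1.39 times of each other. WB at 100 d over WB at 45 d was 1.37 for CHAT (0.941 to 2.01), 1.39 for SLC5A7 (1.01 to 1.93), 1.21 for LHX8 (0.971 to 1.52) and 1.23 for CHRM3 (0.98 to 1.54). The edgeR log2 fold changes were 0.46 ± 0.66, 0.48 ± 0.63, 0.28 ± 0.49 and 0.30 ± 0.47 (SE), none was called, and 0.152% of the 1318 transcripts fitted were. Whether the age difference depended on tissue was tested by the interaction term over all 5 libraries, which called 0% of 1177 transcripts and gave an unadjusted p under 0.05 for 7.73% of them. The difference of the 2 age differences was 2.93 ± 0.76 (SE; edgeR adjusted p = 0.873) for LHX8, 1.94 ± 1.15 (adjusted p = 1) for CHAT and -0.21 ± 0.68 (adjusted p = 1) for CHRM3 on the log2 scale. For SLC5A7 it was 7.72 ± 1.59 (edgeR adjusted p = 0.275), the smallest p of the 1177, and LHX8 had the fifth smallest. Both were under an unadjusted 0.05 and neither passed the adjustment. SLC5A7 passed it with relative log expression factors (edgeR adjusted p = 0.0185) and without the filter on low counts (0.0271), within a range of 0.0185 to 1 over the alternatives. These comparisons share libraries, so the higher percent of WB at 100 d and the higher HVC level at 100 d are the same measurement seen from both sides, and both rest on the single 100 d HVC library.

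Setting each gene against CHRM3 reads in the same library removes library size from the comparison. Reads of different genes also depend on transcript length, so these shares are compared between libraries and not between genes. CHAT made up 5.56% and 6.90% of CHAT plus CHRM3 reads in the 45 d HVC libraries, 25% in HVC at 100 d (13.2% to 40.3%), 26.1% in WB at 45 d and 28.3% in WB at 100 d. SLC5A7 made up 0% of its pair at 45 d in HVC, with upper limits of 10.3% in R92L1 and 12.8% in R92L2. Its share was 46.8% in HVC at 100 d (34.0% to 59.9%), 32.2% in WB at 45 d and 35.0% in WB at 100 d. LHX8 made up 8.11% and 20.6% in HVC at 45 d, 58.8% in HVC at 100 d (47.2% to 69.6%), 51.1% in WB at 45 d and 50.8% in WB at 100 d. The interval of HVC at 100 d took in both WB shares for CHAT and LHX8 and that of WB at 100 d for SLC5A7, and each 45 d HVC share was below all of these. Summed over the 3 genes, the share was 18.7% in the 45 d HVC pair (10.6% to 29.3%), 72.5% in HVC at 100 d (63.6% to 80.3%), 65.2% in WB at 45 d and 66.2% in WB at 100 d. The interval of the summed share in HVC at 100 d took in both WB values, and that of the 45 d pair took in neither. A share near that of WB is not a level near that of WB, since CHRM3 itself was at 31.1% of WB in HVC at 100 d. CHAT, SLC5A7 and LHX8 were at 26.4%, 50.9% and 43.0% of WB there. Against CHRM4, which itself was higher at 100 d, the HVC shares at 45 d and 100 d were nearer: CHAT was at 3.17% and 3.64% and then 6.59%, LHX8 at 4.69% and 11.7% and then 23.2%, and SLC5A7 at 0% in both and then 15.7%.

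**Figure D4:**
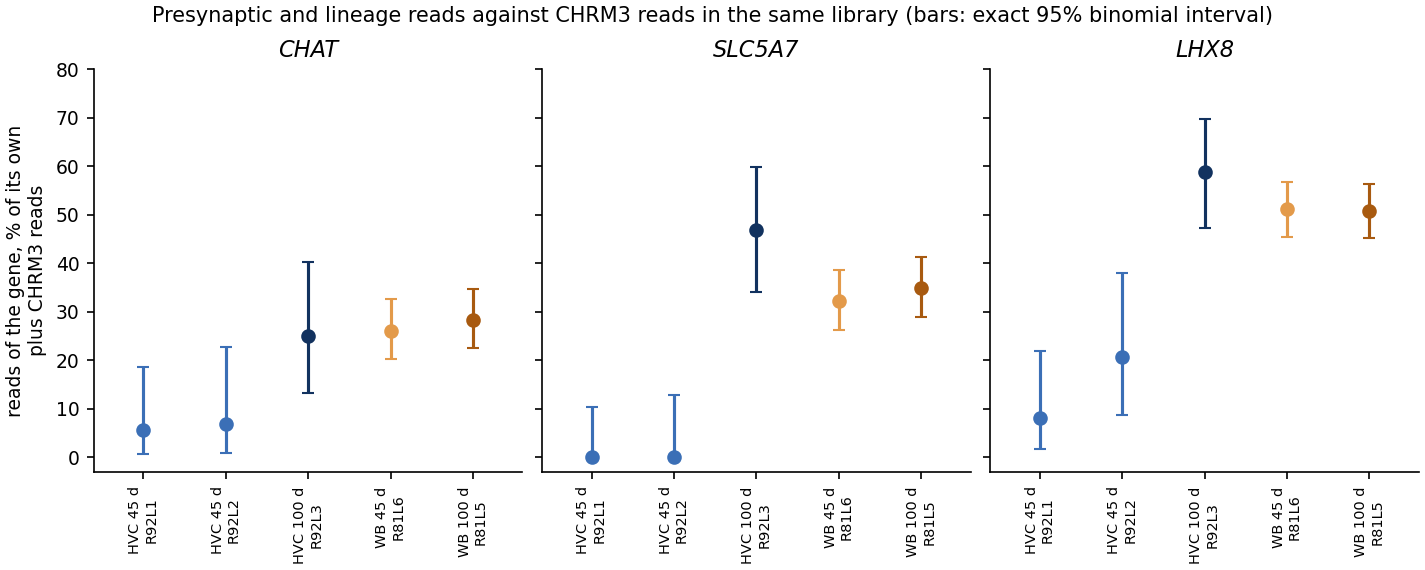
Reads of CHAT, SLC5A7 and LHX8 as a percent of their own plus CHRM3 reads in each library, with exact 95% binomial (Clopper-Pearson) intervals. The 45 d HVC libraries lie lowest in each panel, and HVC at 100 d (25%, 46.8% and 58.8%) lies near or above the WB libraries. CHRM3 itself was at 31.1% of its WB level in HVC at 100 d.

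BCHE and COLQ, the other listed genes of acetylcholine handling with counts in all libraries, had 5 reads or fewer in every HVC library. Of 15 genes in the list (synthesis, breakdown and choline transport), 6 were in a table and 4 could be fitted at 45 d. CHAT, SLC5A7 and BCHE were called lower in HVC and COLQ was not, beside 21.1% of all fitted transcripts called lower. The 4 had a median log2 fold change of -3.30 beside -0.69 for all fitted transcripts. BCHE, which encodes butyrylcholinesterase, a glial and plasma enzyme that also breaks down acetylcholine, had 5 and 3 reads in HVC at 45 d, 5 in HVC at 100 d, 50 in WB at 45 d and 38 in WB at 100 d (HVC against WB at 45 d, log2 fold change -2.74 ± 0.72, edgeR adjusted p = 0.0313). COLQ, the collagen tail that anchors acetylcholinesterase, had 1, 2, 2, 17 and 15 reads in the same order. At 100 d all 4 had negative log2 fold changes and none was called. BCHE in HVC at 100 d was 1.25 times its 45 d level (0.321 to 4.32) and COLQ 1.33 times (0.111 to 11.6), intervals that both take in no change. ACHE, which encodes acetylcholinesterase, and SLC18A3, the vesicular acetylcholine transporter, were not analysed here.

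The transcription factors of the lineage were split. Of 18 genes in this list 5 were in a table, and LHX8 was the one called at 45 d (lower), beside 21.1% of all fitted transcripts called lower. ISL1, which works with LHX8 in the formation of cholinergic neurons in the mouse, had 0 and 1 reads in HVC at 45 d, 1 in HVC at 100 d, 20 in WB at 45 d and 13 in WB at 100 d. ZIC4, a zinc finger factor, had 0, 1, 0, 18 and 11 reads. At 45 d neither passed the threshold (log2 fold changes against WB -4.22 and -4.07, edgeR adjusted p = 0.102 for ISL1 and 0.137 for ZIC4), and at 100 d, where 47 reads of LHX8 were counted, the reads of both were still at 1 or 0. DLX6, a homeobox factor of ventral forebrain GABA neurons, had 16 and 20 reads in HVC at 45 d, 32 in HVC at 100 d and 87 in WB at 45 d. SOX6, an SRY-box factor of several neural lineages, had 251 and 338 reads in HVC at 45 d, 410 in HVC at 100 d, 294 in WB at 45 d and 220 in WB at 100 d. It was called higher in HVC at 100 d (log2 fold change 1.49 ± 0.37, edgeR adjusted p = 0.00595), the opposite of LHX8 in sign.

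Among the other receptors, CHRM5, the M5 muscarinic receptor that couples to Gq, had 71 and 92 reads in HVC at 45 d and 50 at 100 d. Its level at 100 d was 61.1% of that at 45 d (43.6% to 84.4%; log2 fold change -0.70 ± 0.38, edgeR adjusted p = 1). The 3 muscarinic receptors listed for HVC thus did not share a direction with age. CHRM5, like CHRM4, was listed only for its age difference in HVC, so a difference with age was a condition for both. Of 24 nicotinic genes 7 were in a table, and of 3 fitted at 45 d CHRNA4 was called lower in HVC, beside 21.1% of all fitted transcripts. CHRNA4, a subunit of the main brain heteromer, had 18 and 14 reads in HVC at 45 d, 28 in HVC at 100 d and 125 in WB at 45 d (log2 fold change against WB -2.08 ± 0.50, edgeR adjusted p = 0.0168). CHRNA7, the subunit of the homomeric alpha7 channel, ran the other way: it had 126 and 264 reads in HVC at 45 d, 166 in HVC at 100 d, 167 in WB at 45 d and 129 in WB at 100 d. HVC held 212% of its WB level at 45 d (177% to 256%) and 194% at 100 d (153% to 246%), though the 45 d pair itself differed 1.74-fold and neither difference was called (edgeR adjusted p = 0.13 and 0.351). CHRNA5 had 89 and 154 reads in HVC at 45 d and 182 at 100 d, and CHRNB3 had 2 and 3 reads in HVC at 45 d and 19 in WB at 45 d. Each was listed only for the difference these reads show, CHRNA5 for age in HVC and CHRNB3 for tissue at 45 d.

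Genes that act downstream of muscarinic receptors had negative log2 fold changes against WB at both ages wherever they could be fitted. Of 35 in this list 9 were in a table. At 45 d, 4 of the 5 fitted were called lower in HVC, beside 21.1% of all fitted transcripts, with a median log2 fold change of -1.07 beside -0.69 for all fitted transcripts. PLCB4, a phospholipase C activated by Gq, had 520 and 786 reads in HVC at 45 d, 715 in HVC at 100 d, 4026 in WB at 45 d and 3898 in WB at 100 d. It was called lower at both ages, with log2 fold changes of -1.78 ± 0.29 (edgeR adjusted p = 0.000488) and -1.85 ± 0.35 (edgeR adjusted p = 3.97e-05). ITPR3, an inositol trisphosphate receptor, and RGS7, a regulator of Gi/o signalling, were called lower at 45 d (log2 fold changes -2.03 and -0.95). KCNQ5, a potassium channel closed by Gq-coupled receptors, was not (-1.07, edgeR adjusted p = 0.19). At 100 d 1 of the 2 fitted, PLCB4, was called lower, beside 13.7% of all fitted transcripts. KCNQ3, which forms M-type potassium channels, and ITPR1, an inositol trisphosphate receptor, could not be fitted, and their levels in HVC at 100 d were 2.40 times (2.21 to 2.60) and 2.62 times (1.34 to 5.32) those in WB. Both were listed only for the tissue difference at 100 d, so a difference was a condition for them. ITPR1 rests on 26 reads in HVC and 15 in WB at 100 d. With age in HVC none of the 5 fitted was called. GNAI1, a Gi alpha subunit, had 2140 and 2657 reads at 45 d and 3667 at 100 d (log2 fold change 0.61 ± 0.23, edgeR adjusted p = 1). It was listed only for its age difference in HVC, so a difference with age was a condition for it.

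Markers of the ventral forebrain and striatum with counts in the 3 HVC libraries had higher levels in HVC at 100 d than at 45 d. So had CHAT, SLC5A7, LHX8 and CHRM4. Of 22 such genes 12 were in a table and 6 could be fitted between the ages in HVC. All 6 log2 fold changes were positive, with a median of 1.50 beside 0.02 for all fitted transcripts, and 0 were called by edgeR's quasi-likelihood test (3 at an unadjusted p under 0.05). Over the 7 transcripts with counts in the 3 HVC libraries the summed level was 313 and 326 at 45 d and 995 at 100 d, and none was at 0. Most of each sum came from PDE10A alone, with levels of 254 and 266 at 45 d and 818 at 100 d. Of the 7 transcripts, DRD2, ADORA2A, EBF1 and OPRM1 had 100 d HVC counts only because they were listed for the age difference in HVC. A difference with age was thus a condition for part of this set. PENK, MEIS2 and DRD3 had no 100 d HVC count here, FOXP2 and SIX3 had no 45 d HVC count, and all are left out. PDE10A, a phosphodiesterase of striatal medium spiny neurons, had 229 and 290 reads in HVC at 45 d and 818 at 100 d (801 and 906 in WB at 45 d and 100 d). TAC1, the precursor of substance P, had 10 and 11 reads in HVC at 45 d and 67 at 100 d (55 and 17 in WB). OPRK1, the kappa opioid receptor, had 8 and 5 reads in HVC at 45 d and 17 at 100 d. It was the 1 of 9 fitted at 45 d that was called lower than in WB (74 reads), beside 21.1% of all fitted transcripts. DRD2, a dopamine receptor, had 5 and 6 reads at 45 d and 19 at 100 d, and ADORA2A, an adenosine receptor, had 1, 2 and 8. The lists of other neurons had both signs with age in HVC: of 6 GABA neuron transcripts fitted 4 had positive and 2 negative log2 fold changes (median 0.23), and of 6 pallial excitatory ones 3 were positive and 3 negative (median -0.0047), with none called. The summed level of the GABA transcripts was also higher at 100 d (7327) than in the 45 d pair (5183 and 4551). Of these, GAD1-1 and GAD2 had 100 d HVC counts only because they were listed for the age difference in HVC. Over the 4 GABA transcripts with counts in all 5 libraries the sum was 1694 and 1515 at 45 d and 1892 at 100 d. That of the pallial excitatory ones was 1623 and 1367 at 45 d and 1426 at 100 d. A higher summed level at 100 d was thus not seen in the striatal markers alone. For both sets it rests in part on transcripts listed for that difference. The part of these markers in the age differences of CHAT, SLC5A7, LHX8 and CHRM4 was not tested. CHRM3 was at 1.08 times its 45 d level beside them. Of the hindbrain and motor nucleus list 1 of 16 genes was in a table and none could be fitted.

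**Figure D5:**
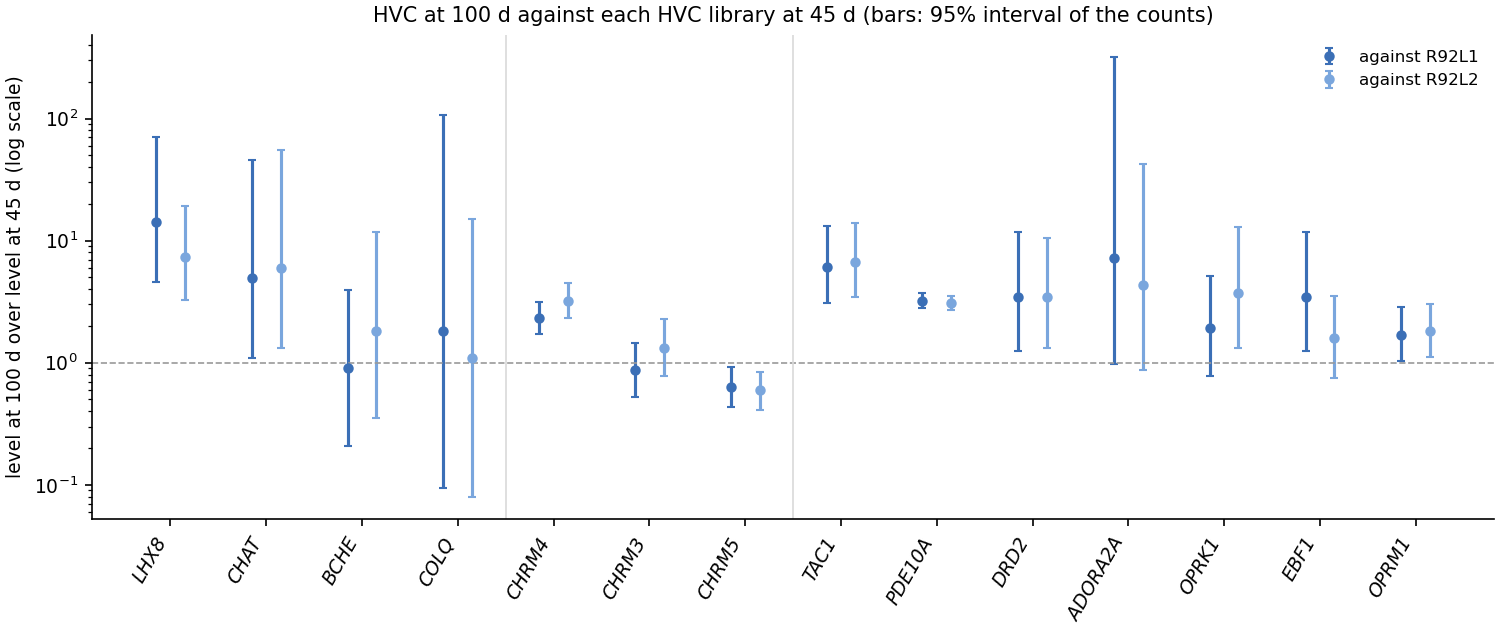
Level in HVC at 100 d over the level in each 45 d HVC library, on a log axis, with 95% counting intervals. From left to right the blocks hold cholinergic genes, muscarinic receptors, and ventral forebrain and striatal markers. SLC5A7 is left out because its 45 d reads were 0. The points of LHX8, CHAT, CHRM4 and the striatal markers shown lie above 1 against both libraries, while those of CHRM3 and BCHE lie on either side of 1. Among the striatal markers, the intervals of ADORA2A against both libraries, EBF1 against R92L2 and OPRK1 against R92L1 take in 1.

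Across the 5 libraries, LHX8 was nearer in pattern to CHAT and to SLC5A7 than any of the 3 was to CHRM3, while CHAT was nearer to CHRM3 (2.16) than to SLC5A7 (2.65). The measure was the Euclidean distance between log2(level + 1) profiles centred over the 5 libraries, among 876 other transcripts with a symbol, counts in all 5 libraries and a mean of at least 20 reads. Nearest to SLC5A7 were LHX8 (1.86), CHAT (2.65) and SLC13A4 (2.81), a sulfate transporter. Among the nearest to CHAT were SLC13A4 (0.952) and LHX8 (1.15). Nearest to LHX8 were SLC13A4 (1.07), CHAT (1.15) and OGN (1.62), a proteoglycan of the extracellular matrix. From CHRM3 the distance was 3.11 to LHX8 and 4.74 to SLC5A7, and its nearest were ANGPTL7-1 (0.198), SIP1 (0.206) and TGS1 (0.221). The profiles of CHAT, SLC5A7 and LHX8 rest on few reads in HVC at 45 d, and the points within a tissue share a run.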

How the data were processed

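Total RNA was amplified with a NuGEN Ovation kit and sequenced as 79 nt reads on an Illumina GAIIx. The authors trimmed reads, mapped them with ELAND2 to taeGut1 and tested pairs of groups with edgeR. The deposited tables hold the raw read counts per Ensembl transcript, with log2 fold changes and p-values that the authors computed, for the 1800 transcripts with the smallest p of 11507 tested for HVC against WB at 45 d, 10859 for the same at 100 d, 11258 for the HVC age difference and 11101 for that of WB. A transcript is listed because it differed in some comparison, so shares called are among listed transcripts. CHAT, SLC5A7 and LHX8 are in 3 tables, CHRM3 in the 2 tissue tables and CHRM4 in the HVC age table. The authors' fold changes served to recover relative library sizes and their p-values to recover the number tested; they are not reported.

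Counts were joined by transcript over the 4 tables; 2217 counts given in 2 tables did not differ. edgeR 4.0.16 (R 4.3.3) quasi-likelihood tests were fitted on all listed transcripts with 1 mean per group, after filterByExpr (minimum count 10, minimum total 15), adjusted by Benjamini-Hochberg over the number tested by the authors (11507 for the interaction) and called under 0.1. The 45 d HVC pair stayed in the fits at 100 d and in WB to give the spread (1 residual degree of freedom). SE is the log2 fold change over the root of F. Ratio intervals are exact binomial, and shares have Clopper-Pearson intervals. Alternatives used DESeq2 1.42.0 and limma 3.58.1, other library sizes, no filter, adjustment over fitted transcripts alone, an additive model and, chosen after seeing the data, edgeR's exact test. The additive model fits a tissue difference shared by both ages and an age difference shared by both tissues. Scripts were tested on simulated data with 200 changed transcripts.

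The genes and lists were chosen with earlier results of these data known. Named were the 5 genes, all tabled genes of the cholinergic and receptor lists, up to 4 called and 2 not called genes of other lists, and the 3 nearest patterns; DRD2 and ADORA2A as age-related markers, KCNQ3 and ITPR1 as exceptions in their list, and ACHE and SLC18A3 as untabled genes were named after values were seen. Results of some genes that the rule names are not reported here.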

Additional observations from a re-analysis of the deposited data

How the results depend on the processing

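The log2 fold changes of CHAT, SLC5A7, LHX8 and CHRM4 had the same sign under all alternatives run. That of CHRM3 between the ages in HVC turned to -0.11 with summed counts as sizes, and was -0.19 without R92L2 and 0.41 without R92L1; its interaction term of -0.21 was -0.49 and 0.11. Of the 4 genes called at 45 d, 2 were called with DESeq2, limma-voom and the additive model. The additive model has the same tissue difference at 45 d and 100 d, so its calls are not of either age alone. The 1 called at 100 d fell to 0 with summed counts, TMM, relative log expression, DESeq2, limma-voom and the exact test, and rose to 3 with adjustment over the transcripts fitted alone and 2 in the additive model. Between the ages in HVC 1 was called without the filter, 2 with adjustment over fitted transcripts and 2 by the exact test. The interaction called 1 with relative log expression, 1 without the filter and 2 with adjustment over fitted transcripts. Against CHRM4, the shares in HVC at 100 d were 6.59% (CHAT), 15.7% (SLC5A7) and 23.2% (LHX8). The cause was not tested. Leaving out R92L1 or R92L2 gives values with no test. Over all listed transcripts, the 669 called at 45 d became 231 with summed counts, 272 with TMM, 124 with DESeq2, 317 with limma-voom and 1672 with adjustment over those fitted. The 336 at 100 d became 86, 75, 35, 203 and 976, 164 with relative log expression, 607 in the additive model and 197 by the exact test. The 0 between the ages in HVC became 2 with DESeq2, 10 without the filter, 19 with adjustment over those fitted and 34 by the exact test, the 2 in WB ran from 0 to 7, and the 0 of the interaction reached 4 with relative log expression, 4 without the filter and 6 with adjustment over those fitted. With TMM, 70.2% of calls at 45 d were higher in HVC instead of 39.3%, and 78.7% instead of 44.4% at 100 d; with relative log expression these were 84.5% and 82.9%. No paired analysis was possible because each WB group and HVC at 100 d had 1 library. Counts of 0 to 7 reads limit CHAT, SLC5A7 and LHX8 in HVC at 45 d.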

Other observations

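Some cholinergic genes were listed for part of the libraries and could not be fitted, because no repeated group had their counts. Their values are given without a test and with counting intervals. SLC44A5, a choline transporter-like protein, had 423 reads in HVC at 100 d and 1126 in WB at 100 d, so that HVC held 56.7% of the WB level (50.6% to 63.5%), near the 50.9% of SLC5A7 at that age. SLC44A3, of the same family, had 142 reads in WB at 45 d and 244 at 100 d, a ratio of 2.06 (1.67 to 2.56). CHRNA3, a nicotinic subunit of ganglia and the habenula, had 57 reads in HVC at 100 d and 39 in WB at 100 d, a level in HVC 2.21 times that in WB (1.44 to 3.41). RIC3, a chaperone that helps nicotinic receptors assemble, had 93 reads in HVC at 100 d and 260 in WB at 100 d, or 54.0% of the WB level (42.2% to 68.7%). CHRNA1, the muscle-type subunit, had 17 reads in WB at 45 d and 5 at 100 d. SLC44A5 and CHRNA3 were listed only for the tissue difference at 100 d, and SLC44A3 and CHRNA1 only for the age difference in WB. RIC3 was listed for both. A difference was thus a condition for each of these values.

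TAC1 was higher at 100 d in HVC, as LHX8 was, and lower at 100 d in WB. It was 6.36 times its 45 d level in HVC at 100 d (3.85 to 10.9) and 0.371 times in WB (0.202 to 0.648). The interaction term was 4.08 ± 0.92 (SE; edgeR adjusted p = 0.493), which did not pass the threshold, and TAC1 was called higher in HVC than in WB at 100 d (log2 fold change 2.56 ± 0.72, edgeR adjusted p = 0.0222). In WB the ratios were 1.21 for LHX8 (0.971 to 1.52) and 1.37 for CHAT (0.941 to 2.01), intervals that both take in no change.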
